A study of Mus musculus with 2 samples.

Results

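The genes described here build the hemidesmosome, the junction that fixes an epithelial cell to its basement membrane, and laminin-332, the matrix protein that the junction grips. There are 9 of them among the 18724 genes of the deposited table, chosen by name: the integrin subunit genes Itga6, Itgb4 and Itga3, the tetraspanin gene Cd151, the laminin chain genes Lama3 and Lamb3, the transmembrane collagen gene Col17a1, and the plakin genes Plec and Dst. Each identifier was matched to its symbol, and all 9 were measured. The RNA came from sorted luminal cells of the prostate of mice aged 18 weeks, with 1 library of label-retaining cells (LRC, the GFP-positive sort) and 1 library of non-label-retaining cells (non-LRC, the GFP-negative sort). The label is GFP fused to histone 2B, per the title of the series, and such a label is thinned out by cell division, so cells that divide rarely keep it. The promoter that drives the transgene, the mouse strain, the number of mice pooled and the surface antigens of the sort are not stated in the labels.

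In a hemidesmosome the integrin alpha6 beta4 binds laminin-332 outside the cell and, inside the cell, the plakins plectin and BP230 tie it to keratin filaments. Collagen XVII and CD151 sit in the membrane beside the integrin. Laminin-332 is built of different chains, among them alpha3 and beta3, and the integrin alpha3 beta1 binds it too. In the prostate these genes are best known from basal cells, which rest on the basement membrane beneath the luminal cells.

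All 9 genes had a lower normalised count in the LRC library than in the non-LRC library, as did 50.2% of the 17183 measured genes. A normalised count is a gene's read count divided by the size factor the authors gave its library. A gene was called lower when it was at least 2-fold lower, that is, had a log2 ratio (LRC over non-LRC) of at most -1 with a 95% counting interval that excluded equality. By this rule 7 of the 9 genes were lower in the LRC library and 0 were higher. Of all 17183 measured genes, 19.4% were called lower and 14.5% higher. With the libraries scaled so that the luminal keratin genes Krt8 and Krt18, summed, were equal, 9 of the 9 were lower, against 40.7% of measured genes lower and 5.48% higher. The median log2 ratio of the 9 genes was -2.29, against -0.0052 for all measured genes. Of the 9 genes, 5 were at least 4-fold lower by the same rule, and 0 at least 4-fold higher, against 9.64% and 4.32% of measured genes. With 1 library per group there was no test and no replicate check, so every comparison is between these libraries and the intervals cover counting error only. In sorted cells measured in bulk, fewer cells of a type and less RNA per cell cannot be told apart.

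The libraries held 50689229 reads (LRC) and 48334265 reads (non-LRC) in the genes of the table. Markers of luminal and of basal cells were found in both, in different amounts. The 13 luminal markers summed to 2726800 normalised counts in the LRC library and 691091 in the non-LRC library, with 7 of 13 called higher and 0 lower in LRC (6 higher and 1 lower with Krt8 and Krt18 set equal). The keratin genes Krt8 and Krt18 had log2 ratios of 0.86 and 0.66, and the epithelial adhesion gene Epcam had 0.82. With Krt8 and Krt18 set equal, Epcam was at 0.03. Krt8 and Krt18 were then at 0.08 and -0.12, on either side of 0 because that scaling makes their sum equal. The 11 basal markers measured (Dsg3 was not analysed here) summed to 11384 normalised counts in the LRC library and 233112 in the non-LRC library. Of these 11, 10 were called lower (the exception, Ngfr, was at 0.19), none was at 0 in either library, and the median log2 ratio was -4.42. The basal keratin genes Krt5 and Krt14 and the basal transcription factor gene Trp63 had log2 ratios of -4.77, -4.58 and -4.74. The part of basal RNA in the results below was not tested. Markers of other cells also differed between the libraries, and their part was not tested either. Smooth muscle markers were lower in 10 of 10 (sums of 3298 in LRC and 33473 in non-LRC), and endothelial markers in 5 of 9 with 0 higher (750 in LRC, 1669 in non-LRC), or in 8 of 9 with Krt8 and Krt18 set equal. Leukocyte markers were lower in 8 of 10 and higher in 2 (9262 in LRC, 22793 in non-LRC), with Gzma at 0 in LRC. The leukocyte sum in LRC was mostly Cd52, called higher (6804 in LRC, 1965 in non-LRC). The median log2 ratio of these 10 was -3.66. Fibroblast markers were lower in 3 of 7 and higher in 2 (15824 in LRC, 91425 in non-LRC). The fibroblast sum in non-LRC was mostly Dcn (4920 in LRC, 83927 in non-LRC). The median log2 ratio of these 7 was 0.94, or 0.16 with Krt8 and Krt18 set equal. Of the 2 higher calls in each of these lists, 1 was left in each with total reads, and with Krt8 and Krt18 set equal 1 was left among leukocyte markers and 0 among fibroblast markers. Schwann cell markers, which matter here because Schwann cells also use the integrin alpha6 beta4, were higher in 5 of 8 and lower in 2 (11354 in LRC, 5402 in non-LRC). Seminal vesicle markers were higher in 7 of 7 (84299 in LRC, 768 in non-LRC), with Svs3a and Svs6 at 0 in non-LRC.

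**Figure D1:**
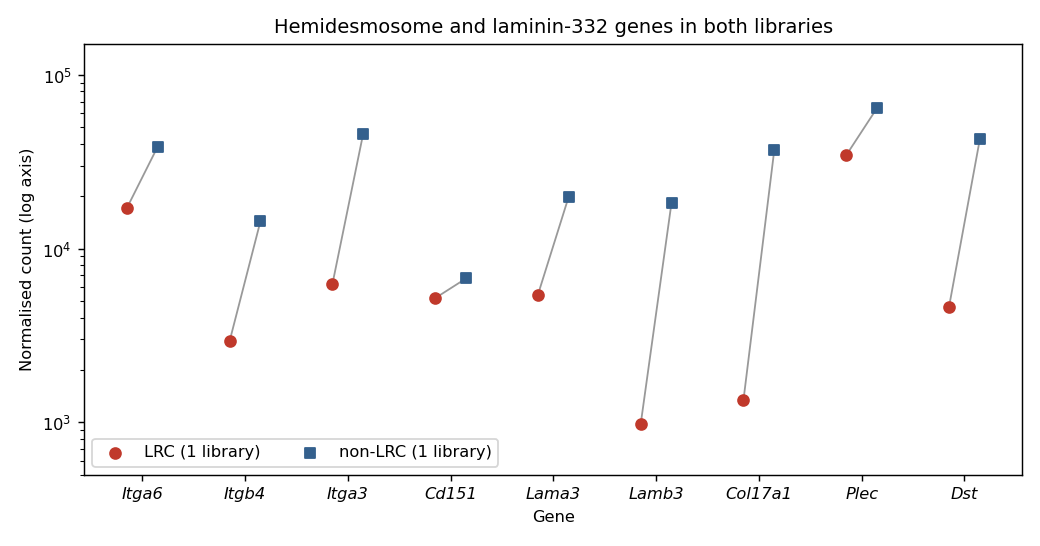
Normalised counts (log axis) of the 9 genes in the LRC library (circles, left of each pair) and the non-LRC library (squares, right), with a line joining the 2 values of a gene. In every pair the LRC value is the lower, least so for Cd151, with 5183 in LRC and 6726 in non-LRC, and most so for Col17a1, with 1342 in LRC and 36841 in non-LRC.

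The integrin subunits were unequally lower. Itga6 (ENSMUSG00000027111.14, chromosome 2, 71745616 to 71858416, plus strand, mm10) encodes the alpha6 subunit, which pairs with beta4 in hemidesmosomes and with beta1 elsewhere. It had 17081 normalised counts in the LRC library and 38532 in the non-LRC library, a log2 ratio of -1.17 (interval -1.20 to -1.15). Itgb4 (ENSMUSG00000020758.14, chromosome 11, 115974709 to 116008412, plus strand) encodes the beta4 subunit, which pairs with alpha6 alone. It had 2939 normalised counts in the LRC library and 14356 in the non-LRC library, a log2 ratio of -2.29 (-2.35 to -2.23). The difference between the log2 ratios of Itga6 and Itgb4 was 1.11 (1.05 to 1.18), a quantity that no scaling of the libraries can change. Per kilobase of exon, Itga6 stood at 4.52 times the level of Itgb4 in the LRC library and at 2.09 times in the non-LRC library.

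Itgb1, which encodes the other partner of alpha6, had nearly the ratio of Itga6. Its normalised counts were 16436 in the LRC library and 36402 in the non-LRC library, a log2 ratio of -1.15 (-1.17 to -1.12). The log2 ratio of Itga6 less that of Itgb1 was -0.03, with a counting interval of -0.06 to 0.01. Per kilobase, Itgb1 stood at 2.13 times Itga6 in the LRC library and 2.09 times in the non-LRC library.

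Itga3 (ENSMUSG00000001507.15, chromosome 11, 95044474 to 95076801, minus strand) encodes the alpha3 subunit, which pairs with beta1 in the laminin-332 receptor outside hemidesmosomes. It had 6237 normalised counts in the LRC library and 45841 in the non-LRC library, a log2 ratio of -2.88 (-2.92 to -2.84), or 7.35-fold lower. Its ratio lay below that of Itga6 by a difference of 1.70 (1.66 to 1.75). Per kilobase, Itga3 stood at 0.577 times the level of Itga6 in the LRC library and at 1.88 times in the non-LRC library. The order of these alpha subunits by level was thus opposite in the libraries by this measure of length. With the length of the longest transcript in place of merged exons, the same quotients were 0.324 in the LRC library and 1.05 in the non-LRC library.

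Cd151 (ENSMUSG00000025510.12, chromosome 7, 141467392 to 141471473, plus strand) encodes the tetraspanin that binds the integrins alpha3 beta1 and alpha6 beta4. It was the nearest of the 9 to equality, with 5183 normalised counts in the LRC library and 6726 in the non-LRC library. The log2 ratio of -0.38 (-0.43 to -0.32) did not reach 2-fold, and 34.9% of measured genes had a lower ratio. For each read of Cd151 there were 3.30 reads of Itga6 in the LRC library and 5.73 in the non-LRC library.

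The laminin chain genes Lama3 and Lamb3 differed from each other more than the integrin subunits did. Lama3 (ENSMUSG00000024421.15, chromosome 18, plus strand) encodes the alpha3 chain, to which the integrins bind. It had 5425 normalised counts in the LRC library and 19900 in the non-LRC library, a log2 ratio of -1.88 (-1.92 to -1.83). Lamb3 (ENSMUSG00000026639.17, chromosome 1, 193207699 to 193343878, plus strand) encodes the beta3 chain, which is found in laminin-332 and in no other common laminin. It had 978 normalised counts in the LRC library and 18320 in the non-LRC library, a log2 ratio of -4.23 (-4.32 to -4.13), or 18.7-fold lower. The difference between the log2 ratios of Lama3 and Lamb3 was 2.35 (2.25 to 2.45). Per kilobase, Lama3 stood at 3.41 times Lamb3 in the LRC library and 0.668 times in the non-LRC library, so that the chain with the higher level differed between the libraries.

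Col17a1 (ENSMUSG00000025064.13, chromosome 19, 47646344 to 47692094, minus strand) encodes collagen XVII, also known as BP180, and was the farthest of the 9 from equality. It had 1342 normalised counts in the LRC library and 36841 in the non-LRC library, a log2 ratio of -4.78 (-4.86 to -4.70), or 27.4-fold lower. Only 1.19% of measured genes had a lower ratio. Its rank by normalised count among the measured genes was 5230 in the LRC library and 123 in the non-LRC library. For every 1000 reads of Krt5 there were 1398 reads of Col17a1 in the LRC library and 1410 in the non-LRC library, a difference in log2 ratio of -0.01 (-0.13 to 0.11). Against Krt14 the difference was -0.20 (-0.30 to -0.10), an interval that excludes 0, and against Trp63 it was -0.04 (-0.19 to 0.11).

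The plakins parted from each other. Dst (ENSMUSG00000026131.16, chromosome 1, 33908225 to 34308661, plus strand) encodes dystonin, whose epithelial isoform is the hemidesmosome protein BP230. It had 4601 normalised counts in the LRC library and 42372 in the non-LRC library, a log2 ratio of -3.20 (-3.25 to -3.16), or 9.21-fold lower. Plec (ENSMUSG00000022565.14, chromosome 15, 76170974 to 76232574, minus strand) encodes plectin, which links intermediate filaments to hemidesmosomes in epithelia and to other anchoring sites in most cell types. It had 34373 normalised counts in the LRC library and 64224 in the non-LRC library, a log2 ratio of -0.90 (-0.92 to -0.88), and so fell short of 2-fold. Per kilobase, Plec stood at 17.0 times Dst in the LRC library and 3.44 times in the non-LRC library. These quotients divide Dst by 41.2 kilobases, the merged exons of all its transcripts, and a shorter length would raise its level.

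Isoforms could not be told apart in counts per gene. The annotation lists 20 transcripts of Dst and 22 of Plec, and neuronal and muscle isoforms of dystonin enter the Dst count along with BP230. Counts may also include reads of overlapping genes. For those on the opposite strand this depends on whether counting used the strand, which the sources used here do not say. Exons of Plec share 205 bases with Parp10 on the same strand (1045 reads in LRC, 856 in non-LRC). On the opposite strand, exons of Dst share 1037 bases with Gm26788 (0 reads in LRC, 68 in non-LRC), those of Lama3 share 197 with Gm29200 (22 in LRC, 12 in non-LRC) and those of Cd151 share 193 with Gm10575 (40 in LRC, 62 in non-LRC). Exons of Itgb4 share 537 bases with B230344G16Rik, and those of Dst a further 456 with A930005N03Rik, both on the opposite strand and not analysed here.

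**Figure D2:**
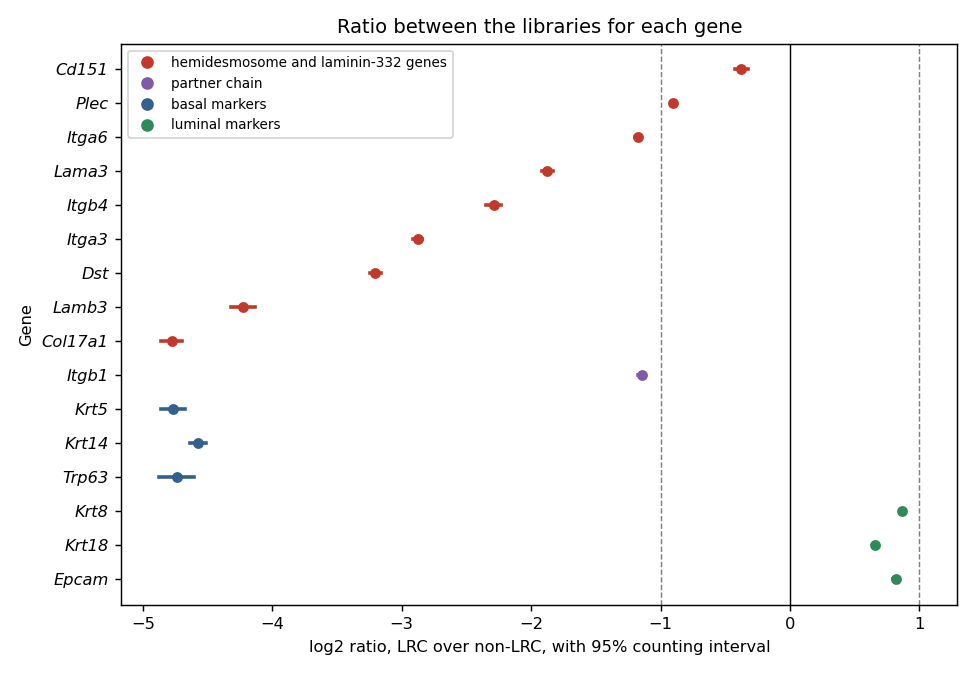
Log2 ratio of LRC over non-LRC (points) with its 95% counting interval (bars) for the 9 genes, the partner chain Itgb1, 3 basal markers and 3 luminal markers, with equality (solid line) and 2-fold (dashed lines). The 9 genes run from -0.38 for Cd151 to -4.78 for Col17a1, which lies beside Krt5 at -4.77.

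The 9 ratios spread over a 21.1-fold range. For all 36 pairs of the 9 genes the interval of the difference in log2 ratio excluded 0, and 26 pairs were at least 2-fold apart. Pairs of other measured genes were not counted, so whether these counts are unusual is not known. At such read counts the intervals are narrow for any gene. The smallest difference, 0.27, was between Itga6 and Plec. Depth did not limit these comparisons, as the genes had 980 to 34446 reads in the LRC library and 7394 to 70602 in the non-LRC library, and half-widths of the counting intervals ran between 0.019 and 0.093 on the log2 scale.

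Set against Krt5 and Krt14 reads summed, 8 of the 9 genes had more reads per basal keratin read in the LRC library, as did 98.5% of measured genes. The exception was Col17a1, with 436 reads per 1000 basal keratin reads in LRC and 480 in non-LRC (difference in log2 ratio -0.14, interval -0.23 to -0.05). Lamb3 was next, with 318 in LRC and 239 in non-LRC (0.41, 0.30 to 0.52). Dst had 1494 in LRC and 553 in non-LRC (1.44, 1.367 to 1.503), and Itga3 had 2025 in LRC and 598 in non-LRC (1.76, 1.70 to 1.82). Itgb4 had 954 in LRC and 187 in non-LRC (2.35, 2.27 to 2.43), and Lama3 had 1762 in LRC and 260 in non-LRC (2.76, 2.70 to 2.83). Itga6 had 5547 in LRC and 503 in non-LRC (3.46, 3.41 to 3.52). Plec had 11162 in LRC and 838 in non-LRC (3.74, 3.68 to 3.79), and Cd151 had 1683 in LRC and 87.7 in non-LRC (4.26, 4.19 to 4.33). Set against Krt8 and Krt18 reads summed, all 9 genes had fewer reads per luminal keratin read in LRC, as did 80.2% of measured genes, with differences in log2 ratio from -5.56 for Col17a1 to -1.16 for Cd151.

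The levels per kilobase ordered the genes differently in the libraries. In the LRC library Plec (1898 normalised counts per kilobase of exon), Itga6 (1893) and Cd151 (1891) came first, with exact Poisson 95% intervals that overlapped. Itga3 (1092), Lama3 (505), Itgb4 (419), Col17a1 (223), Lamb3 (148) and Dst (112) followed, and no intervals of neighbours among these overlapped. In the non-LRC library Itga3 (8028) and Col17a1 (6129) came first, and then Itga6 (4270), Plec (3546), Lamb3 (2771), Cd151 (2454), Itgb4 (2047), Lama3 (1852) and Dst (1030), again with no overlap between neighbours. All 9 lay above the median level of the measured genes, which was 106 per kilobase in LRC and 115 in non-LRC. By the longest transcript instead of merged exons, Itga6, Cd151 and Plec came first in that order in LRC, and Itga6 and Col17a1 changed places in non-LRC, with the other ranks as given. Quotients of levels depend on the measure of length too. By the longest transcript, Itga6 stood at 8.37 times Itgb4 in LRC and 3.87 times in non-LRC, and Itgb1 at 1.09 times Itga6 in LRC and 1.07 times in non-LRC. Plec stood at 11.3 times Dst in LRC and 2.28 times in non-LRC. For Dst the lengths were 41.2 kilobases (merged exons) and 23.3 kilobases (longest transcript). Which of its isoforms were present is not known, and a shorter one would raise its level. Its last place in both libraries and its quotients with Plec are therefore uncertain.

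**Figure D3:**
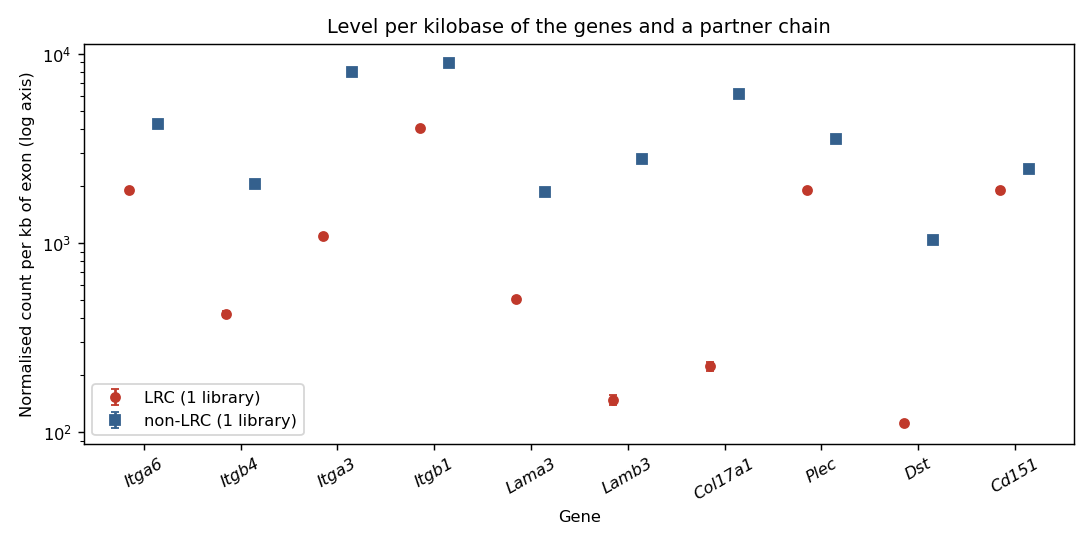
Normalised counts per kilobase of exon (log axis) of the 9 genes and the partner chain Itgb1 in the LRC library (circles) and the non-LRC library (squares), with exact Poisson 95% intervals that are mostly smaller than the symbols. Lamb3 and Col17a1 drop to 148 and 223 in LRC, against 2771 and 6129 in non-LRC, while Cd151 stands at 1891 in LRC and 2454 in non-LRC.

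With 2 libraries, the pattern of a gene is its ratio alone, and many genes share any ratio. Among named protein-coding genes within 2-fold of its mean count, the nearest to Col17a1 (-4.78) were Krt5 (-4.77), Krt14 (-4.58) and the ceruloplasmin gene Cp (-4.46), out of 616 candidates. The nearest to Lamb3 (-4.23) were the cell adhesion genes Nectin1 (-4.17) and Sdk1 (-4.08) and the transporter gene Slco4a1 (-4.40). For Dst (-3.20) they were the basement membrane collagen genes Col4a2 (-3.24) and Col18a1 (-3.35) and the ephrin receptor gene Epha2 (-3.28). For Itga3 (-2.88) they were Txnip (-2.84), Adamts1 (-2.98) and the growth factor receptor gene Egfr (-2.77). For Itgb4 (-2.29) they were Cdcp1 (-2.28), Tubb6 (-2.28) and Aldh1a1 (-2.29), and for Lama3 (-1.88) Papss2 (-1.86), Msn (-1.89) and Ano6 (-1.84). The nearest to Itga6 (-1.17) were the integrin gene Itgav (-1.18), Fam107b (-1.16) and Noct (-1.16). For Plec (-0.90) they were Hspa1a (-0.91), the adhesion gene Vcl (-0.88) and Slc38a2 (-0.86), and for Cd151 (-0.38) Rora, Jak2 and Adgrl2, all at -0.38.

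RefSeq promoter windows on GRCm38.p6, of 250 bases before to 50 after an annotated start, were at hand for 5 of the 9 genes, 9 windows in all. The window of Col17a1 and both windows each of Lamb3, Dst and Cd151, which take in both ends of the range of ratios, are shown 5′ to 3′ on the strand of the gene. Capitals mark matches, on either strand, to TGANTCA (the AP-1 site), GGGCGG (the GC box), TATAAA (the TATA box) or AGAACA (the androgen receptor half-site), with N for any base. No base was shared by 2 matches.
Col17a1, chr19:47691993-47692292, minus strand: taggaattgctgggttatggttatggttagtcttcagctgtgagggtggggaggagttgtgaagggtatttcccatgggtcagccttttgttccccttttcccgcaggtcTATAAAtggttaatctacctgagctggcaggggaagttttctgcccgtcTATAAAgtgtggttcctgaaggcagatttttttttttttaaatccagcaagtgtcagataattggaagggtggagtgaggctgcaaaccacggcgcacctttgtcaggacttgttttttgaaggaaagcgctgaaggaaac
Lamb3, chr1:193301744-193302043, plus strand: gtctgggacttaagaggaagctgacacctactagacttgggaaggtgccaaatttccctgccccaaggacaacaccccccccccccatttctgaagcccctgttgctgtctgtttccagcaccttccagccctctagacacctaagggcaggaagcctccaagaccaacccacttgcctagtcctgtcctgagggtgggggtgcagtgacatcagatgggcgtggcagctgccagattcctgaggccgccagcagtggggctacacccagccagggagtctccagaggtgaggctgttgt
Lamb3, chr1:193301993-193302292, plus strand: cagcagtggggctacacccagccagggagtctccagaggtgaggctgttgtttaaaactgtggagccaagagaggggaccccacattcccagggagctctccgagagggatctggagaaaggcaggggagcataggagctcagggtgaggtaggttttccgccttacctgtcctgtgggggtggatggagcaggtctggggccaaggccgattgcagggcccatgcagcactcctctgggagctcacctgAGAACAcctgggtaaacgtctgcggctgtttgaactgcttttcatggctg
Dst, chr1:34011345-34011644, plus strand: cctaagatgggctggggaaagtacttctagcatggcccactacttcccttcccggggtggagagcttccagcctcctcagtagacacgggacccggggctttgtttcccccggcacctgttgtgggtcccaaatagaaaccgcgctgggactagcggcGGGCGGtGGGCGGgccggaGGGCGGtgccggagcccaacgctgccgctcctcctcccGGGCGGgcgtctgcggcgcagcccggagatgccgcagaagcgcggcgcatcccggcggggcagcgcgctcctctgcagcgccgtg
Dst, chr1:34160010-34160309, plus strand: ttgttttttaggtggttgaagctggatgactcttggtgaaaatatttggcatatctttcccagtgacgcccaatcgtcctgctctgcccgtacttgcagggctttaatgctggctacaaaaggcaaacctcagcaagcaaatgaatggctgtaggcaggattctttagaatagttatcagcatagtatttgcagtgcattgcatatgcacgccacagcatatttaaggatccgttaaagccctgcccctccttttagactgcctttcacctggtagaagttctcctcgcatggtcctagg
Cd151, chr7:141467112-141467411, plus strand: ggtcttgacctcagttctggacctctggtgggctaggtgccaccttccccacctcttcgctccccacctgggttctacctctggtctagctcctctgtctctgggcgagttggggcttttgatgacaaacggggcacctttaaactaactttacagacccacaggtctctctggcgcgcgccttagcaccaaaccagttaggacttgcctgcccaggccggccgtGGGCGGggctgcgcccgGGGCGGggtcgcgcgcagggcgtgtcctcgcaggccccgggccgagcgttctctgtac
Cd151, chr7:141468539-141468838, plus strand: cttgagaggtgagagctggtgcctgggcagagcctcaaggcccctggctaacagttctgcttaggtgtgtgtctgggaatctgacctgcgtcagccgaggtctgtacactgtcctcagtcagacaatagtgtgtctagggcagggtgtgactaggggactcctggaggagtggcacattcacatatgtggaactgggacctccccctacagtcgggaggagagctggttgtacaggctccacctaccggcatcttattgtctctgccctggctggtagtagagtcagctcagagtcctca
The window of Col17a1, the gene with the lowest ratio, held 2 TATA boxes, which begin at bases -140 and -91 from the start, and no GC box. The first window of Cd151, the gene with the highest ratio, held 2 GC boxes, at -25 and -8, and the second held no match. The first window of Dst held 4 GC boxes and the second no match, and their GC contents were 70.3% and 46.0%. The first window of Lamb3 held no match, and the second, which overlaps it, held 1 androgen receptor half-site, at base 1. The windows of Itga3, which are not shown, held 1 AP-1 site and 1 GC box in the window at lower coordinates and 3 GC boxes in the other. Over 32851 RefSeq windows of the same length, 7.81% held an AP-1 site, 35.7% a GC box, 13.6% a TATA box and 19.0% an androgen receptor half-site. These are matches of letters, and binding was not measured.

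Other genes of the basement membrane and its receptors were more often lower than higher in the LRC library, beside backgrounds of 19.4% lower and 14.5% higher. Of 8 other laminin chains, 6 were lower and 0 higher (median log2 ratio -1.48). The farthest apart were Lamc3 (gamma3 chain), with 49.9 normalised counts in LRC and 1715 in non-LRC, a log2 ratio of -5.09 (-5.54 to -4.70), and Lama1 (alpha1 chain), with 273 in LRC and 6569 in non-LRC, at -4.58 (-4.77 to -4.41). Lamb1 (beta1 chain) was at -2.87 (-2.97 to -2.78), and the most abundant, Lama5 (alpha5 chain), had 17956 normalised counts in LRC and 46058 in non-LRC, at -1.36 (-1.38 to -1.33). The chains not called were Lama4, at 0.82, and Lamb2, at 0.22.

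Of 22 other basement membrane components, 13 were lower and 2 higher (median -1.48). Col18a1, which encodes collagen XVIII and was the most abundant, had 5804 normalised counts in LRC and 59018 in non-LRC, at -3.35 (-3.39 to -3.31). Of the chains of type IV collagen, the network-forming collagen of basement membranes, Col4a6 alone was higher. The chain with the most counts in non-LRC, Col4a1, had 5174 normalised counts in LRC and 53815 in non-LRC, at -3.38 (-3.42 to -3.34). Col4a2 was at -3.24 (-3.30 to -3.18), and Col4a5 was not called, at -0.78. Col4a3 was at -4.50 (-4.81 to -4.22) and Col4a4 at -4.03 (-4.37 to -3.71), whereas Col4a6 had 18309 normalised counts in LRC and 6127 in non-LRC, at 1.58 (1.54 to 1.62). The matricellular gene Smoc2 was lower at -4.57 (-4.81 to -4.35) and the nidogen gene Nid2 higher at 1.44 (1.25 to 1.63). With Krt8 and Krt18 set equal, neither Col4a6 nor Nid2 was called higher.

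Of 9 other laminin receptors, 6 were lower and 0 higher (median -1.10). The syndecan genes Sdc1 and Sdc4, which encode heparan sulphate proteoglycans of the cell surface, were at -3.92 (-3.98 to -3.87) and -1.98 (-2.003 to -1.963), Sdc4 being the most abundant. Bcam, which encodes a receptor for laminin alpha5, was at -3.60 (-3.71 to -3.50). Dag1, which encodes dystroglycan, was not called, at -0.22.

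Of the 4 other plakins measured (Eppk1 was not analysed here), 2 were lower and 0 higher (median -0.85). These were the periplakin gene Ppl, at -2.87 (-2.94 to -2.81), and the desmoplakin gene Dsp, the most abundant, at -1.45 (-1.46 to -1.43). Plec and Dst, at -0.90 and -3.20, were on either side of both Dsp and Ppl.

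The other tetraspanins did not share this direction: 7 of 18 were higher and 3 lower (median 0.58), although with Krt8 and Krt18 set equal 5 were higher and 6 lower and the median turned to -0.21. Tspan1, the most abundant, had 35384 normalised counts in LRC and 8210 in non-LRC, at 2.11 (2.07 to 2.14). The uroplakin gene Upk1b was at 2.31 (2.18 to 2.44) and Tspan13 at 2.03 (1.98 to 2.08). Tspan9 was lower at -2.64 (-2.76 to -2.52), Tspan14 at -1.13 (-1.21 to -1.05) and Tspan4 at -1.03 (-1.29 to -0.78). The ratio of Cd151, -0.38, lay below those of 12 of these 18.

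Of 17 genes that link integrins to actin in focal adhesions, 8 were lower and 1 higher (median -0.88). The tensin genes Tns4 and Tns1 were at -4.03 (-4.23 to -3.84) and -2.22 (-2.28 to -2.16), and Fermt1, which encodes the integrin activator kindlin-1 of epithelia, at -2.36 (-2.54 to -2.18). Lims2 was higher at 2.91 (2.45 to 3.44), with 285 reads in LRC and 41 in non-LRC. The most abundant, the vinculin gene Vcl, was not called, at -0.88.

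Of 10 proteases known to cleave laminin-332 or collagen XVII, or listed as candidates to do so, 3 were lower and 2 higher (median -0.66). The plasminogen activator genes Plat, the most abundant, and Plau were higher, at 1.74 (1.69 to 1.79) and 1.30 (1.23 to 1.38). Mmp14 was lower at -2.76 (-2.85 to -2.67) and Bmp1, which encodes a procollagen C-proteinase, at -2.41 (-2.53 to -2.30). Tll1 was lower at -1.07 on 11 reads in LRC and 26 in non-LRC, and its interval (-2.27 to -0.04) nearly reached equality. Neither plasminogen activator gene was called higher with Krt8 and Krt18 set equal.

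**Figure D4:**
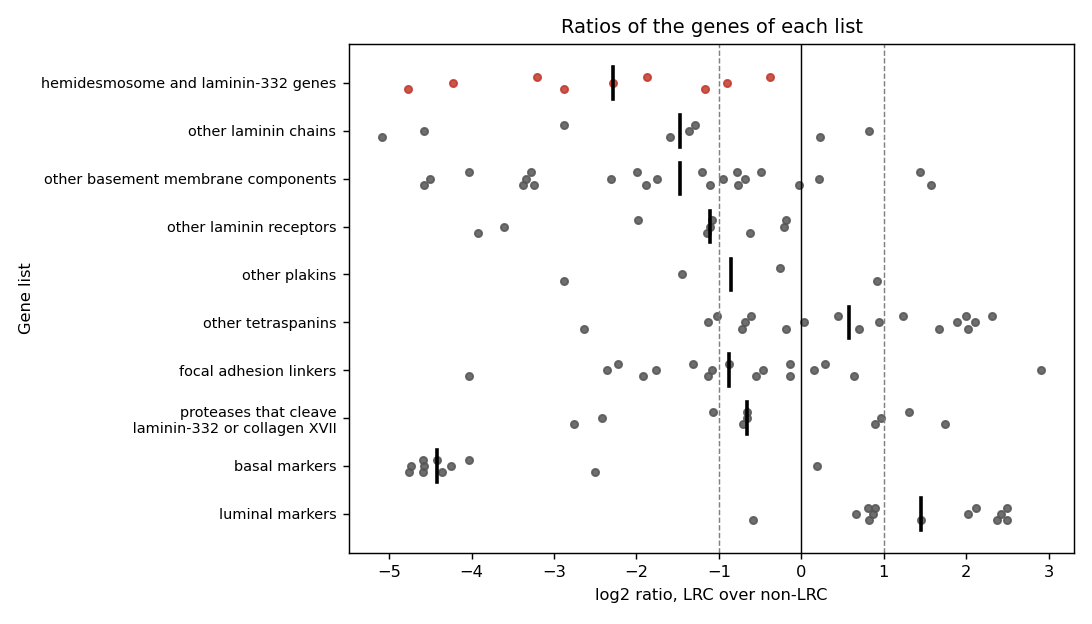
Log2 ratio of LRC over non-LRC for the measured genes of each list (points) and the median of the list (black bar), with equality (solid line) and 2-fold (dashed lines). The 9 hemidesmosome and laminin-332 genes have a median of -2.29, and of the 7 pathway lists under them the median of the other tetraspanins alone, 0.58, is above 0 (-0.21 with Krt8 and Krt18 set equal).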

How the data were processed

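RNA of 2 sorted luminal populations of the mouse prostate was extracted with an RNeasy kit and made into libraries with Illumina's TruSeq kit for stranded total RNA, as the labels' protocols state. The deposited values are a normalised signal: gene read counts that the authors divided by 1 size factor per library, as the values show, since 100% of them were whole multiples of a constant step (tolerance 1e-06 reads). The size factors were 1.002 (LRC) and 1.10 (non-LRC). Tools listed in the submitters' processing notes, without their roles, are TopHat2 2.0.10 with Bowtie2 2.1.0, CASAVA 1.8.2, DESeq 1.16.0 and HTSeq 0.6.0, on mm10. The annotation and strand setting are not given there, so genes with close copies or overlaps are uncertain.

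Symbols, positions and exon lengths came from GENCODE release M21 on GRCm38 (mm10), which matched 18634 of 18724 identifiers. Whole reads were recovered from the steps. Log2 ratios used the deposited scaling and a pseudocount of 0.5, with Clopper-Pearson 95% counting intervals, and Wald intervals for differences between genes. Measured genes had a mean normalised count of at least 10 (17183 genes). The calculation was tested on simulated data. Members and lists were chosen with earlier results of these data known. The rule for named genes took all members, fixed markers, up to 3 called genes per direction and the most abundant gene of each of 7 lists, and 3 genes of nearest ratio per member. A gene of these lists is not reported here. Genes named beside these were chosen after their values were seen. Alternatives were 4 scalings (one with edgeR 4.0.16), a pseudocount of 5, other filters, a 4-fold rule and another gene length. Python 3.11.15, SciPy 1.17.1 and R 4.3.3 were used.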

Additional observations from a re-analysis of the deposited data

How the results depend on the processing

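No paired analysis was possible because each group had 1 library, and for the same reason no replicate could be left out. All 9 genes kept a log2 ratio below 0 under each scaling and with a pseudocount of 5. Of them, 7 were called lower under the deposited, median-of-ratios and TMM scalings, with a pseudocount of 5, without a filter and with the filter raised to 50, 8 when scaled to total reads (Plec joined, at -1.10), 9 when Krt8 and Krt18 were set equal, and 5 under a 4-fold rule. None was called higher under any of these. The median log2 ratio of the 9 moved to -2.49 with total reads and to -3.07 with Krt8 and Krt18 set equal. Those scalings shift every ratio by -0.20 and -0.78 and put the median of all measured genes at -0.21 and -0.79, so relative to it the genes stand as before. With Krt8 and Krt18 set equal, 6993 measured genes were lower (40.7%) and 942 higher, and lower calls made up 88.1% of all calls, against 57.3% under the deposited scaling. With total reads, lower calls made up 67.3%. Under the keratin scaling, 6 other tetraspanins and 6 proteases were lower, and 0 proteases and 0 other basement membrane components higher. Cd151, with a log2 ratio of -1.16 there, was lower by 2-fold only under that scaling. Differences between genes do not depend on the scaling.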
